A study of Gallus gallus with 18 samples.

Results

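The 9 genes HNF4A, FOXA1, FOXA2, CEBPA, PROX1, PPARA, PPARD, NR1H3 and RXRA encode transcription factors that set and tune the gene programme of the liver. They were taken by symbol from the deposited expression table, which held all 9 of them among 23741 chicken genes. Values for them exist in 18 polyA RNA-seq libraries of Arbor Acres broiler breeders, which form 6 groups of 3. By the labels, the FE libraries come from roosters kept on 5 mg folic acid per kg of a corn and soybean diet since hatching. The FCON libraries are labelled as from roosters kept on 0.25 mg per kg of the same diet. From both diets there are, by the labels, liver of roosters at 35 weeks and sperm of roosters at 35 weeks (36 weeks for sperm FE replicate 3). W chromosome counts that bear on the label of the FCON livers are given below. Liver of day-old broiler offspring, named after the diet of the father, came from RNA pools of 4 chicks each, whose mothers were hens fed corn and soybean meal with an unstated amount of folic acid. The labels do not say which birds of a treatment gave which library, so p-values measure only the spread between 3 libraries per group.

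HNF4A, FOXA1, FOXA2, CEBPA and PROX1 belong to the hepatocyte lineage factors. In mammals, FOXA1 and FOXA2 open closed chromatin at liver enhancers, HNF4A and CEBPA keep hepatocyte genes running, and PROX1 acts early in liver development and tempers metabolic gene activity in the adult organ. PPARA, PPARD, NR1H3 and RXRA are nuclear receptors that read lipids. PPARA responds to fatty acids and drives their oxidation, PPARD does so more broadly across tissues, NR1H3 (the oxysterol receptor LXR alpha) drives cholesterol disposal and fat synthesis, and RXRA is the partner with which the other 3 bind DNA.

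The libraries differ in more than diet, in rooster liver above all by W and rRNA counts. Genes of the W chromosome, which hens carry and roosters lack, took 0 to 2.07 CPM (counts scaled to a common library total) in the libraries labelled rooster FE and 1010 to 1120 CPM in those labelled rooster FCON, over 64 genes. Nuclear rRNA genes took 32.8 to 60.5% of counts in rooster FE and 3.02 to 8.75% in rooster FCON, with total counts per library of 16979085 to 22813497 in rooster FE and 36114364 to 43130067 in rooster FCON (and of 16979085 to 43130067 over all 18). The day-old pools numbered 2 held 1300 (FE) and 963 (FCON) W CPM, against at most 9.34 in the other 4 pools. Diet, the sex or origin of the birds and the share of rRNA therefore cannot be told apart between the libraries labelled rooster liver FE and FCON. What raised the share of rRNA was not tested. On FCON the sex or origin of the birds cannot be told apart from age or tissue. On FE, W genes took 0 to 2.07 CPM in rooster liver, 5.02 to 32.6 in sperm and 2.59 to 9.34 in the offspring pools other than number 2. The share of nuclear rRNA did not overlap between rooster and offspring liver on either diet, as given below with the ages. In liver, levels are given as FPKM (fragments scaled to transcript length and library total) divided by each library's TMM factor over the 12 liver libraries, called scaled FPKM here, which scales the bulk of genes to a common level. As a check of the tissue labels, the 18 hepatocyte markers summed to 11940 to 59340 FPKM as deposited in the 12 liver libraries and to 114.4 to 492.5 in the 6 sperm libraries. In scaled FPKM their sum was 17300 to 26040 in rooster FE and 44150 to 44540 in rooster FCON. The 14 spermatid and sperm markers summed to 338 to 748.8 FPKM in sperm FE, to 71.2, 1161 and 263 in sperm FCON, and to 45.7 to 263.7 in the livers. The libraries labelled sperm FCON replicate 1 and replicate 3 thus lie within the range of the livers by this sum, replicate 3 at its upper end. By detection they do not, since all 14 markers had counts in each sperm library. In each liver library, 1 to 7 of the 14 were at 0 counts. The sperm FCON differences of CEBPA, PPARD, NR1H3 and RXRA below are also given without replicate 1, but not without replicate 3. Those of the other members are given with all libraries only.

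In the libraries labelled rooster FE, NR1H3 was more than 5 times as high as in those labelled rooster FCON, while HNF4A, FOXA1 and FOXA2 were lower and the other 5 members did not pass the test in either direction. In day-old liver no member passed the test for diet, nor did any of the 9700 genes tested. In sperm none of the 4 members tested passed, nor did any of 8811 genes. Across tissues, the hepatocyte lineage factors were near or below 1 FPKM in sperm with the exception of CEBPA, and PPARD was higher in sperm than in rooster liver on FCON.

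**Figure D1:**
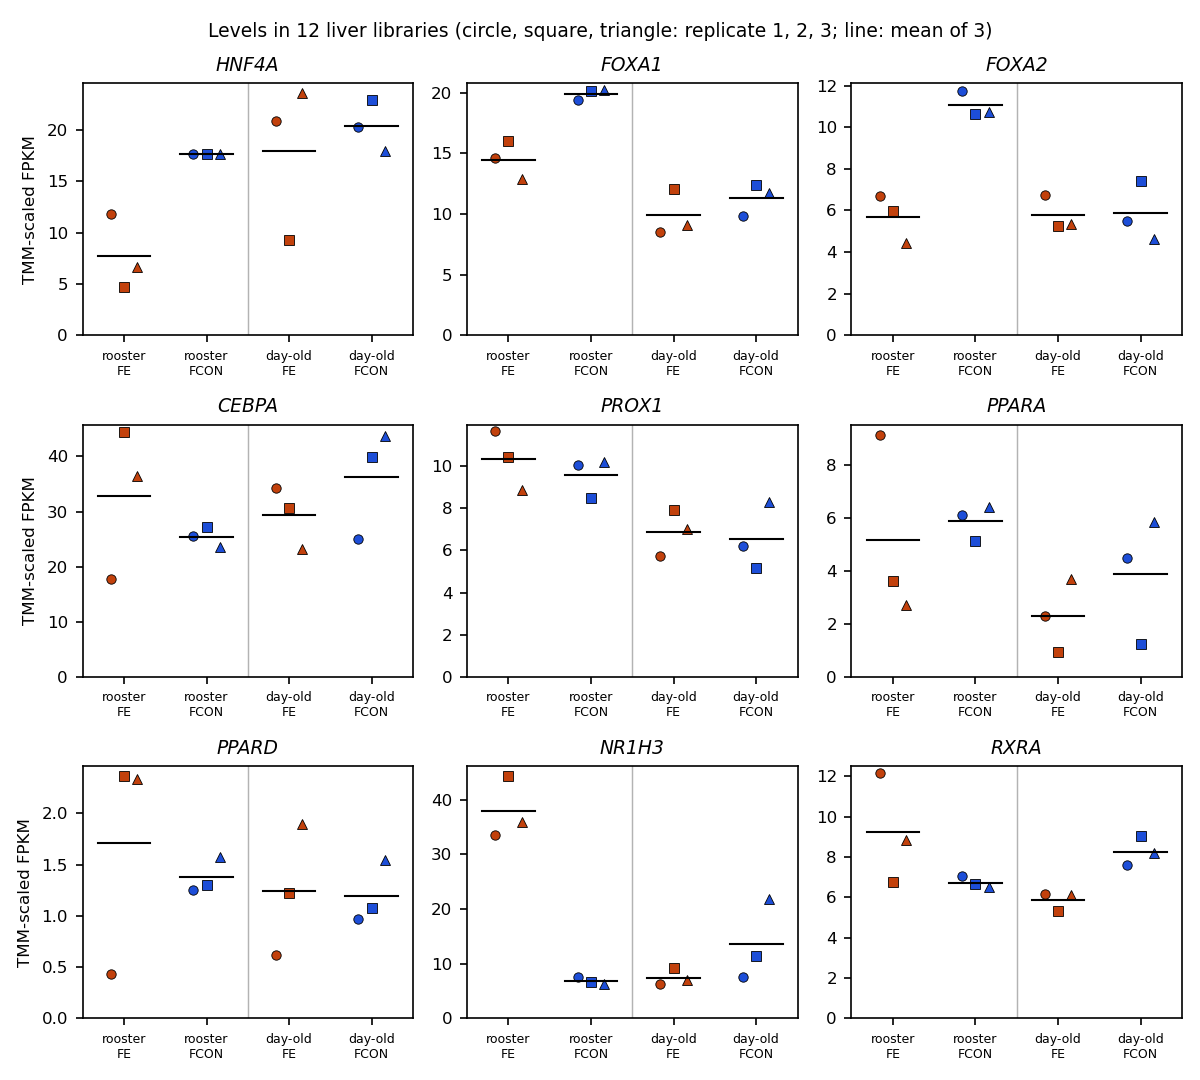
Scaled FPKM of the 9 genes (y axis, linear, from 0) in the 4 liver groups (x axis), 3 libraries per group marked by replicate number, with the group mean as a line. NR1H3 stands at 33.6 to 44.3 in rooster FE and at 6.33 to 7.52 in rooster FCON, HNF4A at 4.68 to 11.8 and 17.6 to 17.7, and replicate 1 of rooster FE lies apart from the other 2 for CEBPA, PPARA and PPARD.

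Among the lineage factors, HNF4A, an orphan nuclear receptor, lies on chromosome 20 (gene 419198, 5416830 to 5446429, minus strand, coordinates of the deposited table). It had 11.8, 4.68 and 6.66 scaled FPKM in rooster FE, against 17.7, 17.7 and 17.6 in rooster FCON. All 3 FE libraries lie below all 3 FCON libraries, and the FE libraries differ among themselves more than the FCON libraries do. The log2 difference was -1.17 (SE 0.31, adjusted p = 0.0227 by edgeR's quasi-likelihood test with Benjamini-Hochberg adjustment over 10291 genes). All adjusted p below come from the same test unless another is named, adjusted over the genes tested in each comparison. FOXA2 (gene 395539, chromosome 3, 3356615 to 3369593, plus strand) had 6.69, 5.98 and 4.42 scaled FPKM in rooster FE, against 11.8, 10.6 and 10.7 in rooster FCON. The groups do not overlap, and FOXA2 fell by 0.92 on the log2 scale (SE 0.18, adjusted p = 0.00734). FOXA1 (gene 101752179, chromosome 5, 37377816 to 37382405, minus strand) had 14.6, 16.0 and 12.9 scaled FPKM in rooster FE, against 19.4, 20.2 and 20.2 in rooster FCON. Its groups do not overlap either, and it fell by 0.42 (SE 0.11, adjusted p = 0.0174).

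The other lineage factors did not pass. CEBPA, a bZIP factor of mature hepatocytes (gene 427549, chromosome 11, 10295396 to 10296370, minus strand), had 17.7, 44.5 and 36.4 scaled FPKM in rooster FE, against 25.5, 27.2 and 23.6 in rooster FCON. FE replicate 1 was the lowest of the 6 libraries and the other FE libraries the highest, with a log2 difference of 0.41 (SE 0.31, adjusted p = 0.332). Without FE replicate 1, which also held the most nuclear rRNA (60.5%), CEBPA would be called higher (0.71, adjusted p = 0.00568). PROX1 (gene 395802, chromosome 3, 21380528 to 21428454, minus strand) had 11.7, 10.4 and 8.86 scaled FPKM in rooster FE, against 10.1, 8.50 and 10.2 in rooster FCON. The groups overlap widely, with a log2 difference of 0.14 (SE 0.13, adjusted p = 0.420).

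Of the lipid receptors, NR1H3 (gene 395221, chromosome 5, 23351806 to 23379909, minus strand) had 33.6, 44.3 and 35.9 scaled FPKM in rooster FE, against 7.52, 6.68 and 6.33 in rooster FCON. The lowest FE library lies more than 4 times above the highest FCON library. NR1H3 rose by 2.50 on the log2 scale (SE 0.14, adjusted p = 4.23e-05). Among the 11002 genes tested over all livers, it stood at percentiles 88.8, 91.3 and 89.6 within the FE libraries and at 66.0, 63.2 and 61.6 within the FCON libraries, while HNF4A stood at 75.1, 54.7 and 63.8 in FE and at 81.5, 81.7 and 81.4 in FCON.

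RXRA, the shared partner (gene 417143, chromosome 17, 7577180 to 7655316, plus strand), had 12.2, 6.76 and 8.82 scaled FPKM in rooster FE, against 7.05, 6.65 and 6.50 in rooster FCON. FE replicate 2 lies within the FCON range, and the log2 difference of 0.49 did not pass (SE 0.21, adjusted p = 0.101), but it would without FE replicate 2 (0.67, adjusted p = 0.0160). PPARA (gene 374120, chromosome 1, 71237314 to 71277816, plus strand) had 9.14, 3.64 and 2.70 scaled FPKM in rooster FE, against 6.12, 5.15 and 6.42 in rooster FCON. FE replicate 1 was above all FCON libraries and the other FE libraries below them. The log2 difference was -0.17 (SE 0.42, adjusted p = 0.779), and -0.85 without FE replicate 1 (adjusted p = 0.00751). PPARD (gene 395479, chromosome 26, 4087839 to 4106014, minus strand) had 0.436, 2.37 and 2.34 scaled FPKM in rooster FE, against 1.26, 1.30 and 1.57 in rooster FCON. Here FE replicate 1, with 33 counts, was the lowest library, and the log2 difference of 0.38 did not pass (SE 0.54, adjusted p = 0.608) but would without it (0.82, adjusted p = 0.00822).

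In all, 4 of the 9 genes passed in rooster liver, 1 higher and 3 lower, where 41.5% of all 10291 genes tested passed (20.4% higher, 21.1% lower). That share of members is close to the share of all genes. The same 4 members were those whose groups did not overlap on the TMM scale, as was the case for 57.8% of all genes. By list, 0 of 5 lineage factors rose and 3 fell, with a median log2 difference of -0.42, and 1 of 4 lipid receptors rose and 0 fell, with a median of 0.43, beside a median of -0.03 over all genes. Without 1 library the number called ran from 2 to 7. HNF4A missed the threshold without FCON replicate 1, 2 or 3 (adjusted p = 0.0616 to 0.0622) and without FE replicate 3 (0.0833), FOXA1 without FCON replicate 1, 2 or 3 (0.0614 to 0.0727), while FOXA2 and NR1H3 passed in each of these fits. On FPKM as deposited, where rRNA weighs on every other gene, the median of all genes was -0.76 with limma on log2(FPKM + 1), and 4.91% of called genes were higher, against 49.2% after TMM scaling. On that scale NR1H3 was higher and HNF4A, FOXA1, FOXA2, PPARA and PROX1 lower (PROX1 -0.75, adjusted p = 0.0217; PPARA -1.09, adjusted p = 0.00428), so the direction for PROX1 turned with the scaling. CEBPA, PPARD and RXRA were also below 0 on that scale, without passing.

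**Figure D2:**
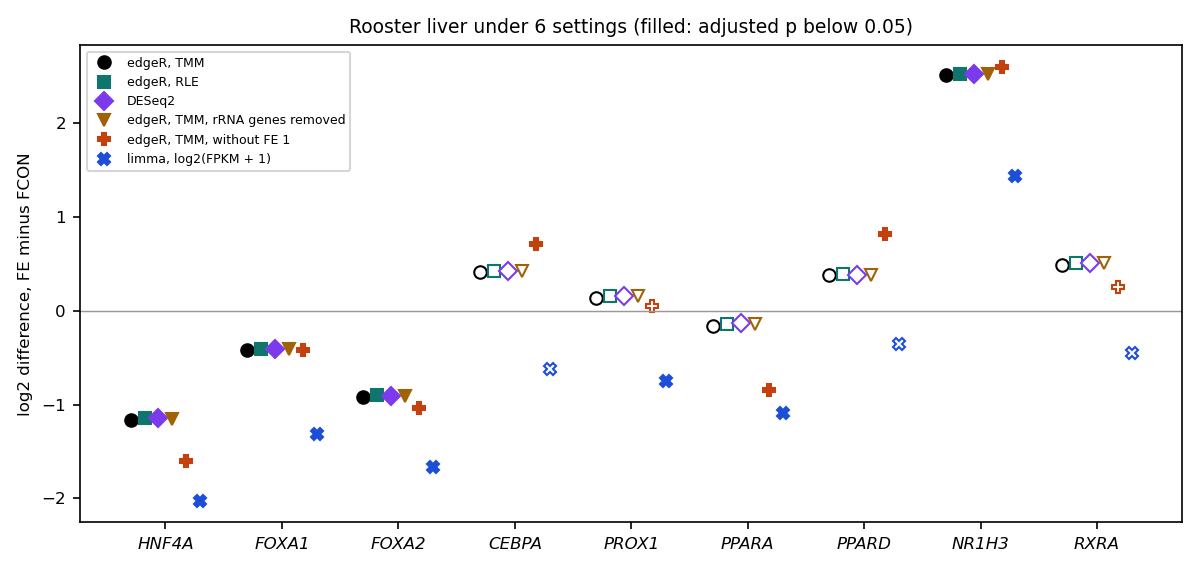
Log2 difference of rooster liver FE minus FCON (y axis) for each gene (x axis) under 6 settings, filled where the adjusted p is below 0.05. NR1H3 is filled and positive under all 6, at 1.43 on log2(FPKM + 1) and at 2.50 with TMM scaling, PROX1 changes sign with limma on FPKM, and CEBPA, PPARA and PPARD become filled when FE replicate 1 is left out.

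Cell type markers differed between the same libraries, where 20.4% of all genes were called higher and 21.1% lower. Hepatocyte markers were lower in rooster FE for 15 of 18 genes and higher for 0. Macrophage markers were higher for 9 of 12 tested and lower for 0, with sums of 872.3 to 914.8 scaled FPKM in rooster FE and 475.3 to 483.4 in rooster FCON, and CD163 at 0 counts in FE replicate 1. Lymphocyte markers were higher for 4 of 6 tested and lower for 0, with sums of 50.2 to 70.3 in rooster FE and 19.9 to 22.7 in rooster FCON. CD4 and LCK were at 0 counts in FE replicate 1, and PAX5 in FE replicates 1 and 3 and in FCON replicate 1. In bulk tissue, fewer cells of a type and less RNA per cell cannot be told apart, and the part of these shifts in the values of HNF4A, FOXA1, FOXA2 and NR1H3 was not tested. Stellate and fibroblast markers were higher for 4 of 10 and lower for 0, with sums of 221 to 257.7 scaled FPKM in rooster FE and 130.6 to 145.4 in rooster FCON. Endothelial markers were higher for 1 of 9 and lower for 2 (sums of 54.3 to 59.0 in rooster FE and 56.4 to 57.0 in rooster FCON), and lymphatic endothelial markers lower for 1 of 2 tested (3.71 to 4.58 and 6.53 to 7.96). Of the other lists, cholangiocyte markers were higher for 1 and lower for 1 of 6, adipocyte markers for 2 and 1 of 5, and erythroid markers for 0 of 6.

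Ratios of members within a library do not depend on scaling or on the share of rRNA in the library total. Effects of RNA quality on them were not tested. NR1H3 over HNF4A, in FPKM per library, was 2.85, 9.46 and 5.40 in rooster FE, against 0.426, 0.377 and 0.358 in rooster FCON. The order of the 2 genes was thus opposite in the 2 groups, with NR1H3 above HNF4A in each FE library and below it in each FCON library. NR1H3 over its partner RXRA was 2.76, 6.54 and 4.07 in rooster FE, against 1.07, 1.00 and 0.973 in rooster FCON. NR1H3 over PPARA was 3.68, 12.2 and 13.3 in rooster FE, against 1.23, 1.30 and 0.986 in rooster FCON. None of these 3 ratios overlaps between the groups, at log2 differences of 3.77, 2.05 and 2.85. All 3 carry the rise of NR1H3 given above and are no separate support for it. Of all single genes, 57.8% did not overlap between these groups on the TMM scale.

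Within the lineage factors, FOXA1 over FOXA2 was 2.18, 2.68 and 2.91 in rooster FE, against 1.65, 1.89 and 1.88 in rooster FCON. PROX1 over FOXA1 was 0.800, 0.653 and 0.687 in rooster FE, against 0.518, 0.422 and 0.506 in rooster FCON. FOXA1 over HNF4A was 1.23, 3.42 and 1.94 in rooster FE, against 1.10, 1.14 and 1.15 in rooster FCON. These ratios too lie apart in the 2 groups, whereas CEBPA over HNF4A (1.50, 9.51 and 5.47 in rooster FE, 1.44, 1.53 and 1.34 in rooster FCON) overlaps through FE replicate 1. Each ratio that does not overlap has an exact two-sided permutation p of 0.1, the smallest that 3 against 3 libraries allow, and 0.35 after adjustment over 21 ratio tests, so this test cannot pass at this size.

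**Figure D3:**
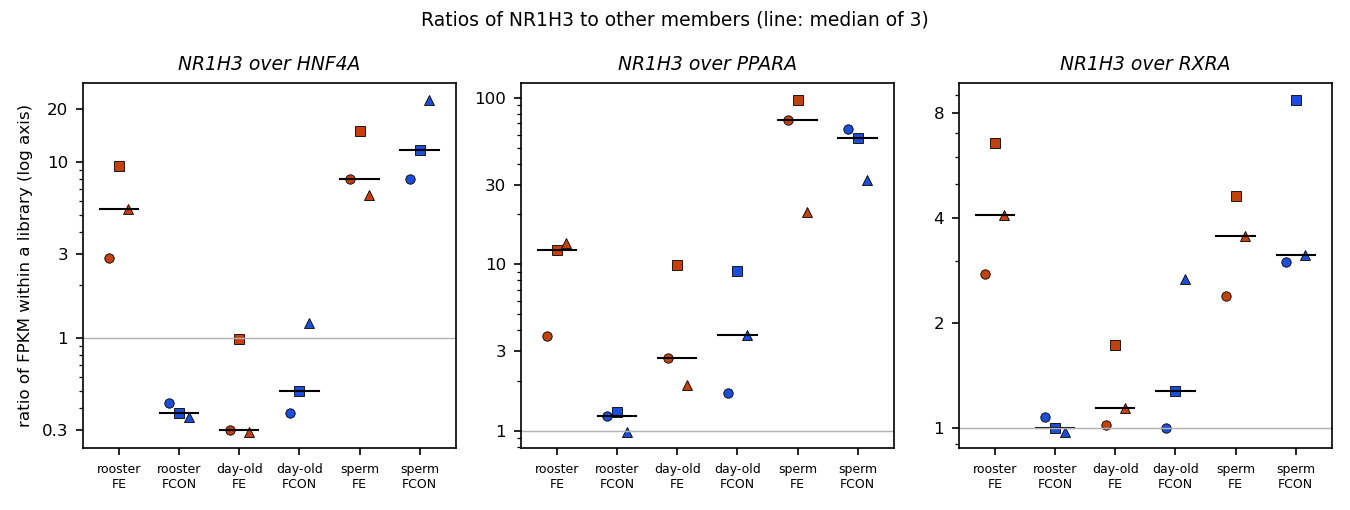
Ratio of NR1H3 to HNF4A, PPARA and RXRA within each library (y axis, log scale, ratio of FPKM) in 6 groups (x axis), with the median of 3 as a line and a grey line at 1. NR1H3 over HNF4A is above 2 in rooster FE and in all sperm libraries, and below 0.5 in all rooster FCON libraries.

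In day-old liver, no member passed the test for the diet of the father. The 9 genes gave 0 calls, as did all 9700 genes tested (0% called, and 679 genes or 7% at an unadjusted p below 0.05; 0 members and 38 genes with DESeq2). NR1H3 had 6.27, 9.17 and 6.95 scaled FPKM in offspring FE, against 7.60, 11.5 and 21.9 in offspring FCON. FCON replicate 3 was far above the rest and the groups overlap, with a log2 difference of -0.85 (SE 0.40, adjusted p = 0.701), and -1.13 without the pools numbered 2 (SE 0.54, adjusted p = 0.996). RXRA had 6.16, 5.32 and 6.12 scaled FPKM in offspring FE, against 7.58, 9.04 and 8.19 in offspring FCON. All FE pools lay below all FCON pools for RXRA, as 14.1% of all genes did not overlap in this comparison, and its difference of -0.49 did not pass (SE 0.26, adjusted p = 0.729).

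HNF4A had 20.8, 9.28 and 23.6 scaled FPKM in offspring FE, against 20.3, 23.0 and 18.0 in offspring FCON. FE replicate 2, a pool with W counts, was below all other pools, and the log2 difference was -0.18 (SE 0.37, adjusted p = 0.915), or 0.24 without the pools numbered 2. PPARA had 2.29, 0.933 and 3.71 scaled FPKM in offspring FE, against 4.49, 1.26 and 5.87 in offspring FCON. In both groups the pool numbered 2 was the lowest, and the difference was -0.72 (SE 0.61, adjusted p = 0.800). FOXA1 (8.53 to 12 in offspring FE, 9.88 to 12.4 in offspring FCON), FOXA2 (5.25 to 6.72 and 4.64 to 7.44), CEBPA (23.2 to 34.2 and 25.0 to 43.7), PROX1 (5.74 to 7.92 and 5.18 to 8.31) and PPARD (0.614 to 1.89 and 0.968 to 1.54) overlapped, with log2 differences of -0.29 to 0.09. Offspring libraries also varied in hepatocyte marker sums, at 22750 to 39280 scaled FPKM in FE and 17720 to 41530 in FCON.

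The diet effect in offspring liver minus that in rooster liver was tested as a single contrast over the 4 groups. For NR1H3, FE minus FCON was -0.85 in offspring and 2.50 in roosters, a difference of -3.35 (SE 0.46, adjusted p = 9.31e-04). This passed in all 20 alternatives run, including the fit without the pools numbered 2. In the rooster part of this contrast, diet cannot be told apart from the sex or origin of the birds and the share of rRNA. All 20 alternatives keep that limit. RXRA had effects of -0.49 in offspring and 0.49 in roosters, a difference of -0.96 (SE 0.30, adjusted p = 0.0444). RXRA passed in only 5 of the 20 alternatives. It missed the threshold without any single library other than rooster FE replicate 2 or offspring FCON replicate 1 (adjusted p = 0.0519 to 0.105), and without the pools numbered 2 (-0.82, adjusted p = 0.128). On log2(FPKM + 1) it had the opposite sign without passing, at 0.39 (adjusted p = 0.328). FOXA2 (0.92, SE 0.35, adjusted p = 0.0868) and HNF4A (1.01, SE 0.51, adjusted p = 0.182) did not pass. So 2 of 9 members passed, where 18.7% of 11002 genes did (10.2% higher, 8.44% lower). On log2(FPKM + 1), where 96.4% of called genes were higher against 54.8% after TMM scaling, NR1H3 stayed lower and HNF4A, FOXA1, FOXA2 and PROX1 were called higher.

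**Figure D4:**
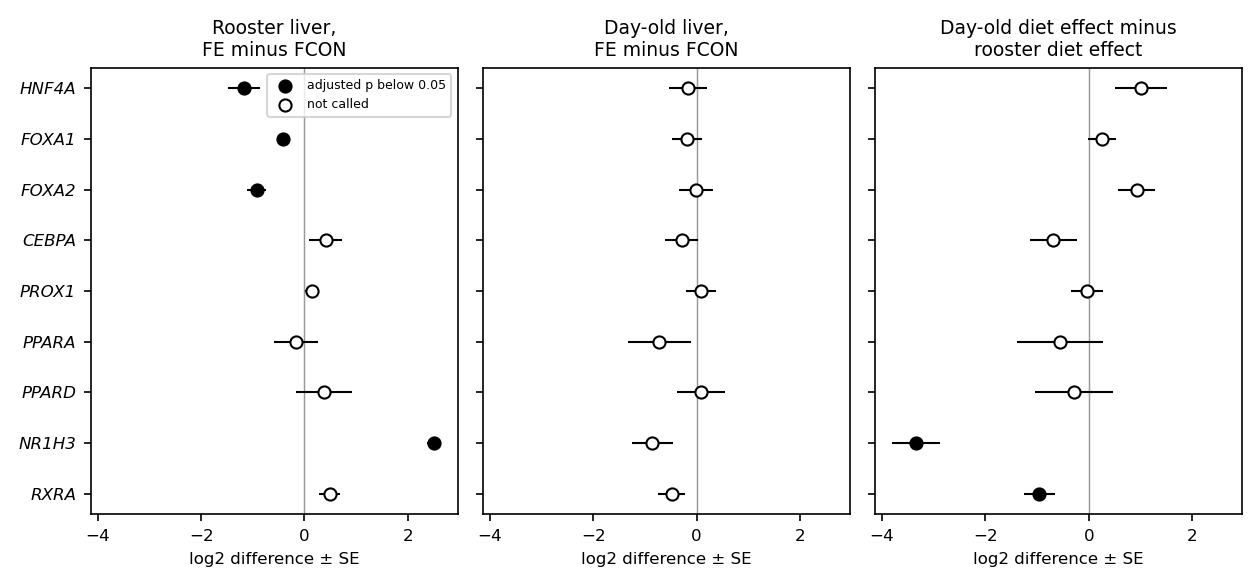
Log2 difference with its SE (x axis, the same scale in all panels) for the 9 genes in rooster liver, in day-old liver, and for the day-old effect minus the rooster effect, filled where the adjusted p is below 0.05. NR1H3 lies at 2.50 in rooster liver, at -0.85 in day-old liver and at -3.35 in the difference, and all 9 day-old points are open.

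By age, the comparisons set rooster liver against day-old liver of the same diet name. On FCON, W genes took 1010 to 1120 CPM in the libraries labelled rooster and 8.09, 963 and 4.14 in the offspring pools. Nuclear rRNA genes took 3.02 to 8.75% of counts in rooster FCON and 16.4 to 29.1% in offspring FCON. The sex or origin of the birds and the share of rRNA thus cannot be told apart from age there. On FCON, FOXA1 had 19.4, 20.2 and 20.2 scaled FPKM in roosters, against 9.88, 12.4 and 11.7 in offspring, and was higher in roosters by 0.79 (SE 0.16, adjusted p = 0.0141). FOXA2 had 11.8, 10.6 and 10.7 scaled FPKM in roosters, against 5.51, 7.44 and 4.64 in offspring, and was higher by 0.89 (SE 0.23, adjusted p = 0.0286). Both pairs of groups lie apart. These were 2 of 9 members, where 29.4% of 10339 genes passed (13.8% higher in roosters, 15.6% lower), and neither passed without rooster FCON replicate 1, 2 or 3 (adjusted p = 0.0735 to 0.117). NR1H3 gave -1.01 for rooster minus offspring without passing (SE 0.38, adjusted p = 0.0835), and PROX1 was at 0.53 (SE 0.21, adjusted p = 0.107). NR1H3, PROX1, HNF4A and RXRA did not overlap between the ages on the TMM scale either, as 53.4% of genes did not. On log2(FPKM + 1), 84.3% of called genes were higher in roosters, against 47% after TMM scaling, and PROX1 was called too.

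On FE, nuclear rRNA genes took 32.8 to 60.5% of counts in rooster liver and 4.7 to 20.4% in offspring liver. This share cannot be told apart from age. NR1H3 alone passed, where 27.4% of 9847 genes did (12.8% higher in roosters, 14.7% lower). It was higher in rooster FE than in offspring FE by 2.36 on the log2 scale (SE 0.25, adjusted p = 6.76e-04). HNF4A gave -1.19 (SE 0.43, adjusted p = 0.0685), and passed in 7 of 13 distinct alternatives, among them the fit without the pools numbered 2 (-1.50, adjusted p = 0.0287). FOXA2, with 6.69, 5.98 and 4.42 in rooster FE and 6.72, 5.25 and 5.34 in offspring FE, gave -0.00 (SE 0.30). FOXA1 (0.57), PROX1 (0.60) and RXRA (0.68) did not overlap between the ages and did not pass (adjusted p = 0.0978, 0.0756 and 0.0836), in a comparison where 47.3% of genes did not overlap. All 3 were below 0 on log2(FPKM + 1), where 9.41% of called genes were higher in roosters against 46.5% after TMM scaling.

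The order of the levels per length differed between groups. In rooster FE it ran from NR1H3 (37.9 ± 5.60 scaled FPKM, SD, n = 3) and CEBPA (32.9 ± 13.7) over FOXA1 (14.5 ± 1.56), PROX1 (10.3 ± 1.41), RXRA (9.25 ± 2.73), HNF4A (7.72 ± 3.69), FOXA2 (5.70 ± 1.16) and PPARA (5.16 ± 3.47) to PPARD (1.71 ± 1.11). Neighbours in that order overlap in range, except that CEBPA lies above FOXA1, FOXA1 above PROX1 and PPARA above PPARD. In rooster FCON it ran from CEBPA (25.4 ± 1.76) over FOXA1 (19.9 ± 0.432), HNF4A (17.7 ± 0.0321), FOXA2 (11 ± 0.619), PROX1 (9.60 ± 0.955), NR1H3 (6.84 ± 0.612), RXRA (6.73 ± 0.281) and PPARA (5.90 ± 0.660) to PPARD (1.38 ± 0.170). Here only NR1H3 and RXRA overlap as neighbours. In both offspring groups CEBPA was highest (29.3 ± 5.60 in FE, 36.2 ± 9.88 in FCON), HNF4A next (17.9 ± 7.61 and 20.4 ± 2.49), and PPARA (2.31 ± 1.39 and 3.87 ± 2.37) and PPARD (1.24 ± 0.640 and 1.19 ± 0.305) lowest, with PPARA overlapping PPARD in range. CEBPA overlapped HNF4A in offspring FE (23.2 to 34.2 and 9.28 to 23.6), where HNF4A also overlapped FOXA1, the next in order (8.53 to 12). In offspring FCON, HNF4A overlapped NR1H3 (18 to 23 and 7.60 to 21.9).

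In sperm, the lineage factors other than CEBPA were low. HNF4A had 0.83, 0.26 and 1.39 FPKM in sperm FE, against 0.97, 1.32 and 0.53 in sperm FCON. FOXA1 (0 to 0.47 in FE, 0.14 to 0.51 in FCON), FOXA2 (0.13 to 0.51 and 0.48 to 0.77) and PPARA (0.04 to 0.44 and 0.12 to 0.37) stayed below 1 FPKM. PROX1 had 12, 27 and 0 counts in sperm FE, against 31, 0 and 0 in sperm FCON. A count of 0 allows up to 0.126 CPM of PROX1 in FE replicate 3 and up to 0.089 and 0.104 CPM in FCON replicates 2 and 3, and up to 0.109 CPM of FOXA1 in FE replicate 2, where these floors of 3 counts cover counting error only.

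The other 4 members reached 1 FPKM in at least 3 sperm libraries and were tested by diet. NR1H3 had 6.60, 3.89 and 9.02 FPKM in sperm FE, against 7.76, 15.5 and 11.9 in sperm FCON. FE replicate 2, with 50.2% nuclear rRNA, was the lowest library, and the deposited FPKM overlap, although after TMM scaling the groups do not. The difference was -0.70 (SE 0.34, adjusted p = 0.902), and -0.76 without FE replicate 2. CEBPA had 8.41, 2.83 and 10.1 FPKM in sperm FE, against 2.58, 7.16 and 4.95 in sperm FCON, with a difference of 0.67 (SE 0.45, adjusted p = 0.902). It too overlaps in FPKM and not after TMM scaling, as 10.3% of all genes do not. PPARD (7.11, 3.09 and 7.94 in FE, 6.34, 4.12 and 5.36 in FCON) and RXRA (2.76, 0.84 and 2.55 in FE, 2.60, 1.77 and 3.81 in FCON) overlapped on both scales. Calls were 0 of 4 members and 0 of 8811 genes (0%; 296 genes or 3.36% at an unadjusted p below 0.05; 0 with DESeq2). Without sperm FCON replicate 1 the differences were 0.63 for CEBPA, -0.60 for NR1H3, 0.77 for PPARD and -0.08 for RXRA, where they had been 0.10 for PPARD and -0.45 for RXRA, and none passed (adjusted p = 0.916 to 0.989).

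Sperm was set against rooster liver within each diet, with the reservation that TMM scaling assumes most genes to be alike, which is doubtful between tissues. HNF4A, FOXA1, FOXA2, PROX1 and PPARA entered these fits through the liver libraries, so their being lower in sperm follows from the filter and is given as a description, at log2 differences of -6.25 to -2.43 on FE and -6.70 to -3.40 on FCON. Of all genes 52.8% passed on FE (29.9% higher, 22.9% lower) and 49.6% on FCON (24.1% higher, 25.5% lower). On log2(FPKM + 1), the share of calls that were higher was 43.4% on FE and 16.5% on FCON, against 56.6% and 48.6% after TMM scaling. PPARD was higher in sperm by 2.79 on FCON (SE 0.49, adjusted p = 0.00445), and by 2.19 without sperm FCON replicate 1 (adjusted p = 0.00298). On FE it entered the fit through sperm, since only 2 of the 3 livers reached 1 FPKM, so its log2 difference of 2.71 is a description there. Its deposited FPKM was 3.09 to 7.94 in sperm FE and 0.200 to 2.04 in rooster liver FE, and 4.12 to 6.34 in sperm FCON and 1.66 to 1.96 in rooster liver FCON, so PPARD lay apart on both diets in deposited FPKM, whose totals include the rRNA counts. PPARD over PPARA was 14.5 to 79.0 in the 6 sperm libraries and 0.0477 to 0.864 in the 6 rooster livers.

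NR1H3 gave opposite differences on the 2 diets. Sperm FE was lower than rooster liver FE by 1.61 (log2 -1.61, SE 0.23, adjusted p = 8.88e-04), with deposited FPKM of 6.60, 3.89 and 9.02 in sperm and 15.4, 33.3 and 31.4 in liver. Sperm FCON was higher than rooster liver FCON by 1.42 (SE 0.19, adjusted p = 0.00184), with 7.76, 15.5 and 11.9 FPKM in sperm and 10.0, 8.52 and 7.90 in liver. On FCON the deposited FPKM overlap between the tissues, and the call is lost on log2(FPKM + 1) (0.33, adjusted p = 0.359). Whether the 2 differences differ was not tested. CEBPA was lower in sperm by 1.34 on FE (log2 -1.34, SE 0.43, adjusted p = 0.0308, lost in 6 of 13 alternatives). On FE its deposited FPKM overlap between the tissues, at 8.41, 2.83 and 10.1 in sperm and 8.13, 33.5 and 31.8 in liver. On FCON it was lower in sperm by 1.79 (log2 -1.79, SE 0.22, adjusted p = 0.00139). RXRA had 2.76, 0.84 and 2.55 FPKM in sperm FE, so on FE it met the filter only through the liver libraries. Its log2 difference of -1.26 on FE (SE 0.37) is therefore a description. On FCON RXRA gave -0.52 (SE 0.43, adjusted p = 0.356). Without sperm FCON replicate 1, NR1H3 gave 1.36 (adjusted p = 0.00204), CEBPA -1.71 (adjusted p = 0.00202) and RXRA -0.83 (adjusted p = 0.171).

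The other liver transcription factors and the other nuclear receptors, listed as company to the members, leaned upward in the libraries labelled rooster FE. Of 22 other liver transcription factors tested, 9 rose and 3 fell (median log2 0.58, beside -0.03 for all genes, of which 20.4% rose and 21.1% fell). ONECUT2, a homeobox factor of liver and bile duct formation (2.84, adjusted p = 3.03e-05), and GATA6, a zinc finger factor of endoderm (1.46, adjusted p = 3.34e-04), rose. CUX2, a homeobox factor that differs between the sexes in rodent liver, fell by 0.51 (adjusted p = 0.00575) and TBX3, a T-box factor of liver bud growth, by 0.58 (adjusted p = 0.0129). Of 20 other nuclear receptors and lipid regulators, 6 rose and 2 fell (median 0.35). NR1I3, a xenobiotic receptor, rose (1.32, adjusted p = 4.83e-05). SREBF1, the regulator of fat synthesis that LXR switches on in mammals, fell by 1.82 (adjusted p = 0.00387), and the bile acid receptor NR1H4 by 0.35 (adjusted p = 0.0236). Of 14 coactivators and corepressors, 4 rose and 3 fell (median -0.24), with NCOA1 at 1.70, SIRT1 at 1.38, PPARGC1B at -1.55 and NCOA2 at -0.51. NR1H4 missed the threshold without FCON replicate 1, 2 or 3 or FE replicate 3 (adjusted p = 0.0605 to 0.104), NCOA2 without FCON replicate 1, 2 or 3 (0.0853 to 0.112), and TBX3 without FCON replicate 3 (0.0566) or FE replicate 3 (0.0501). On log2(FPKM + 1) the calls of GATA6 (0.46, adjusted p = 0.132), NR1I3 (0.35, adjusted p = 0.287) and SIRT1 (0.34, adjusted p = 0.217) were lost. On that scale these 3 lists leaned the other way, as all genes did, with 1 higher and 7 lower, 2 and 8, and 1 and 8. There 6228 of all 10291 genes were called, 4.91% of them higher.

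Known target genes of the members, mostly from work in mammals, were set beside them in 4 lists, again where 20.4% of all genes rose and 21.1% fell in the libraries labelled rooster FE. Of 21 HNF4A targets, 1 rose and 15 fell (median -1.33), with the antithrombin gene SERPINC1 at -2.95 and the clotting factor gene F7 at -2.25, the tyrosine breakdown enzyme TAT at 0.61, and the apolipoprotein gene APOA4 at 1.23 without passing (adjusted p = 0.0529). Of the 26 HNF4A targets listed, 8 are also among the hepatocyte markers. Of 20 PPARA targets, 3 rose and 12 fell (median -0.93). The peroxisomal thiolase ACAA1 fell by 1.90 (adjusted p = 1.90e-05) and the acyl-CoA synthetase ACSL1 by 1.66 (adjusted p = 2.14e-05), and the pantetheinase VNN1 (0.53) and the lipid droplet coat gene PLIN2 (0.50) rose.

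Of 10 LXR targets, 3 rose and 5 fell (median -1.05), beside an NR1H3 that rose. The desaturase SCD rose (2.70, adjusted p = 0.00663), while LPCAT3, which remodels phospholipids, fell by 1.65 (adjusted p = 1.75e-04) and the lipase LPL by 2.50 (adjusted p = 0.00141). Of 13 CEBPA and FOXA targets, 4 rose and 5 fell (median -0.12), with the acute phase gene ORM1 at 1.04, IGFBP1 at -2.70 and APOB at -2.32. Of the 17 CEBPA and FOXA targets listed, 3 are also hepatocyte markers, APOB among them. In addition, 5 of the 17 are in another list of partners or targets, such as TAT among the HNF4A targets. On log2(FPKM + 1) the target lists gave 18 lower and 0 higher for HNF4A and 16 and 0 for PPARA. They gave 7 and 1 for LXR and 9 and 0 for CEBPA and FOXA. On that scale 6228 of all 10291 genes were called, 4.91% of them higher. VNN1, PLIN2 and TAT turned negative there without passing, and ORM1 lost its call (0.065, adjusted p = 0.855). In the difference of diet effects between day-old and rooster liver, 14 of 21 HNF4A targets were higher and 1 lower. The numbers higher and lower were 8 and 0 of 20 PPARA targets, 5 and 1 of 11 LXR targets, and 4 and 1 of 14 CEBPA and FOXA targets. Hepatocyte markers gave 11 and 0 of 18. Of all genes, 10.2% were higher and 8.44% lower. No gene of any list passed by diet in day-old liver or sperm, where 0% of all genes did.

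**Figure D5:**
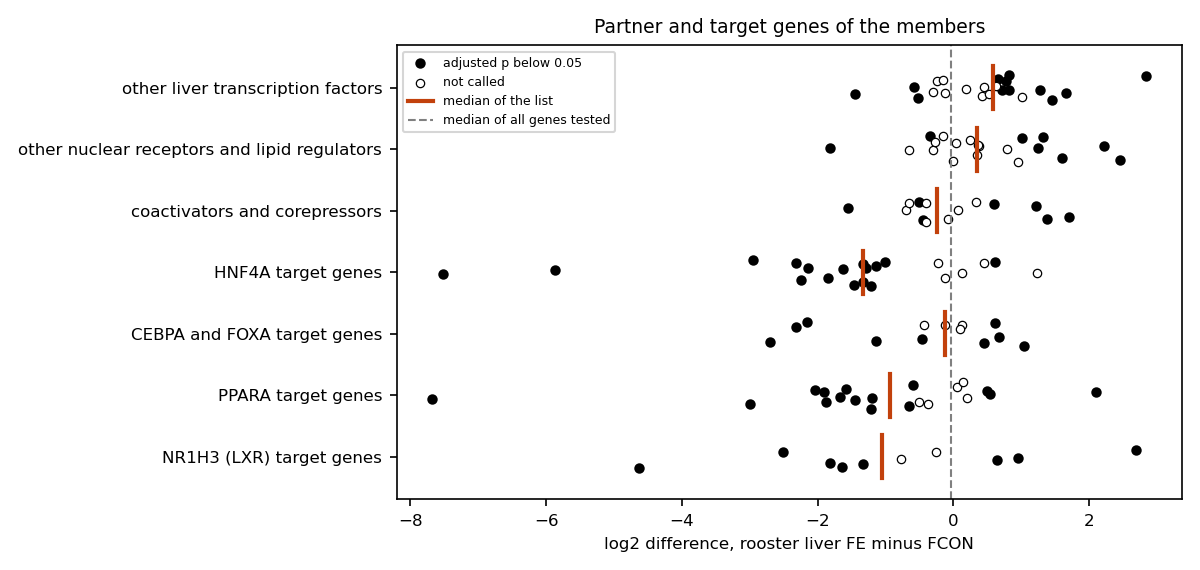
Log2 difference of rooster liver FE minus FCON (x axis) of the genes in 7 lists of partners and targets (y axis, spread within a row only to part the points), filled where the adjusted p is below 0.05, with the list median as an orange-red line and the median of all genes tested as a dashed line. The HNF4A targets centre at -1.33, the LXR targets at -1.05 and the PPARA targets at -0.93, and the other liver transcription factors at 0.58.

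Over the 12 liver libraries, the genes whose log2 levels ran most like a member's were picked from 7393 candidates by Pearson r, as a description only, since the libraries fall into 4 groups. They were NECAP2 (0.991) and EFHD1 (0.978) for NR1H3, CMPK2 (0.959) and C8H1orf168 (0.952) for FOXA1, MFF (0.949) and DYNLRB1 (0.916) for CEBPA, and FCHSD1 (0.943) and LY6E (0.940) for FOXA2. They were MUL1 (0.929) and FAAH (0.921) for HNF4A, EGFR (0.905) and SHC1 (0.902) for RXRA, QRICH1 (0.904) and BIRC2 (0.900) for PROX1, GBE1 (0.880) and TAF9 (0.864) for PPARD, and SCYL2 (0.846) and SLC22A23 (0.807) for PPARA. The likeness was highest for NR1H3 and lowest for PPARA.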

How the data were processed

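The deposited table gives, for each of 18 libraries, FPKM and estimated counts per gene, which the authors made from paired-end reads of fragmented polyA RNA. Per the submitters' processing notes, cutadapt, HISAT2 and StringTie were used. Their versions and settings, the strand and the genome build are not stated, so a gene and an antisense partner may share reads. Positions were taken over from the deposited table, and symbols and chromosome names were looked up by gene ID in a RefSeq list for GRCg7b (19402 IDs matched).

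The deposited estimated counts were tested with edgeR 4.0.16 (quasi-likelihood test, TMM scaling, 1 mean per group) on the libraries of each comparison. Genes needed an FPKM of at least 1 in at least 3 libraries. A gene is called at a Benjamini-Hochberg adjusted p below 0.05 over all genes tested, and only then said to rise or fall. Log2 differences are FE minus FCON, rooster minus offspring, or sperm minus liver. The FPKM, as deposited, is relative to library totals that include 37 nuclear rRNA genes, so liver levels are FPKM over TMM factors and sperm levels FPKM as deposited.

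The 9 members and 20 lists (2 of the members, 7 of partners and targets, 11 of cell types; 252 symbols matched by name, 3 by RefSeq symbol, 21 unmatched) were chosen with earlier results of these data known. In each partner or target list, the genes named are the 2 with the smallest adjusted p in each direction in rooster liver. Some genes that this rule picks are not reported here and were not replaced. Alternatives were RLE scaling, DESeq2 1.42.0, limma 3.58.1 on log2(FPKM + 1) and log2(FPKM + 0.1), no filter, rRNA genes removed, replicate number as a block, each library left out, and the offspring pools numbered 2 left out. After removal of group means, sperm libraries of the same number correlated across genes (r = 0.198, 0.233 and 0.298). The sperm differences, SEs and adjusted p given above come from the fit without pairing. A fit with the replicate number as a block gave 0 calls in sperm, the same as the fit without it. R 4.3.3 and Python 3.11.15 with matplotlib 3.10.9 were used, and the test was tested on simulated data.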

Additional observations from a re-analysis of the deposited data

Results flagged for a closer look

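The diet effect on NR1H3 differed between ages, by -3.35 in log2 (offspring effect minus rooster effect, edgeR adjusted p = 9.31e-04). The diet effect on RXRA differed likewise by -0.961 (adjusted p = 0.0444), a call kept in 5 of 20 alternatives. NR1H3 was lower in sperm than in rooster liver on FE (-1.61) and higher on FCON (1.42), and the difference between these was not tested. The libraries labelled rooster FE carried at most 2.07 CPM of W genes and those labelled rooster FCON 1010 to 1120. Nuclear rRNA took 32.8 to 60.5% of counts in rooster FE and 3.02 to 8.75% in rooster FCON. In the diet effect of rooster liver these cannot be told apart from diet. In sperm against rooster liver on FCON the W counts cannot be told apart from tissue.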

How the results depend on the processing

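With 3 libraries per group, leaving out 1 of them moved the number of members called from 4 to between 2 and 7 in rooster liver. For the difference of diet effects it moved from 2 to between 1 and 2. It moved from 2 to between 0 and 3 for rooster against offspring FCON, and from 1 to between 1 and 2 for rooster against offspring FE. With all libraries, 41.5%, 18.7%, 29.4% and 27.4% of all genes were called in these comparisons, in that order. For sperm against liver the number of members called moved from 9 to between 7 and 9 on FE and from 8 to between 7 and 8 on FCON. There HNF4A, FOXA1, FOXA2, PROX1 and PPARA (and PPARD and RXRA on FE) passed the filter only through the tissue where they are high. The 2 counts for sperm against liver therefore support nothing. Day-old liver and sperm by diet stayed at 0 (0 to 0). For the difference of diet effects, limma on log2(FPKM + 1) and on log2(FPKM + 0.1) called 5 members, and 1 was called with no filter, with the replicate block and without the pools numbered 2. Of 11002 genes, the limma fits called 5776 and 5522, the replicate block 1210 and the fit without those pools 1768. With no filter, 1843 of 18640 genes were called. For rooster against offspring FCON, 0 were called with the replicate block, which called 2026 of 10339 genes. For rooster against offspring FE, 2 were called with DESeq2, either limma fit, no filter, the replicate block or without the pools numbered 2. DESeq2 called 3220 of 9830 genes there and the fit with no filter 2934 of 17282. Of 9847 genes, the limma fits called 4538 and 4175, the replicate block 2276 and the fit without those pools 2153.

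Called values, or values that became called, changed sign only on FPKM, whose median over all genes moved to -0.76 (log2(FPKM + 1)) and -1.01 (log2(FPKM + 0.1)) in rooster liver and to 1.06 and 1.45 for the difference of diet effects. In the other comparisons it moved to 0.34 and 0.41 (day-old liver), 0.41 and 0.53 (rooster against offspring FCON), -0.72 and -0.92 (FE), -0.24 and -0.36 (sperm against liver, FE), -0.87 and -1.22 (FCON) and -0.16 and -0.21 (sperm by diet). On these 2 scales PROX1 gave -0.75 and -0.83, VNN1 -0.42 and -0.44, PLIN2 -0.42 and -0.46 and TAT -0.36 in both in rooster liver, and PROX1 1.20 and 1.33 and RXRA 0.39 and 0.44 for the difference. The replicate numbers do not pair the livers (r of the same number -0.183 to 0.0603). In rooster liver the replicate block called 3442 genes instead of 4269 and FOXA1 missed the threshold (adjusted p = 0.0516). Over all settings 84 counts of members stayed within 1.5 times the main count or equal to it and 30 did not. For single genes and lists, 1891 values kept their side of the threshold or size, 64 lost and 31 gained a call, 86 list counts moved by more than 1.5 times, and 12 values turned.

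PPARD rests on 33 to 570 counts per liver library and PROX1 and FOXA1 on 0 to 55 in sperm, which limits their precision.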

Other observations

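The 3 libraries labelled rooster FCON lay closer together than those of any other group. HNF4A had 17.7, 17.7 and 17.6 scaled FPKM in them, and a biological coefficient of variation of 17.8% over all genes compares with 25.8% in rooster FE, 35.8% in offspring FE, 37.5% in offspring FCON, 39.3% in sperm FE and 48.7% in sperm FCON. Their pairs still exceeded counting noise by 6.69 to 7.05 times (median chi-square over its expected median, genes with at least 50 counts). The other groups gave 12.8 to 96.8. This does not show that the 3 libraries come from separate birds, and tests against rooster FCON count them as 3 because the labels do.

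In day-old liver, where no gene of a list passed, 15 of 21 HNF4A targets were above 0 in FE minus FCON (median 0.38) and 7 of 9 LXR targets (median 0.55), against 9 of 20 PPARA targets (median -0.05) and 5 of 14 CEBPA and FOXA targets (median -0.08), beside a median of -0.01 over all genes. The hepatocyte marker list had a median of 0.34 there and the macrophage list of -0.32. CEBPA over HNF4A, a ratio free of scaling, was 1.64, 3.29 and 0.982 in offspring FE, against 1.23, 1.74 and 2.43 in offspring FCON.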
